A study of Mus musculus with 12 samples.

Results

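The 8 genes described here are the enzymes that write and erase 5-methylcytosine in mouse DNA, together with 2 partners that have no catalytic role of their own in DNA methylation: Tet1, Tet2, Tet3, Dnmt1, Dnmt3a, Dnmt3b, Dnmt3l and Uhrf1. They were taken by symbol from the 18193 genes that the array annotation names singly, and 20 probe sets carry these symbols. Each gene was read from its brightest probe set, and the others served as a check. Expression was measured in D3 cells, a mouse embryonic stem cell line, on 12 arrays, 3 in each of 4 culture groups, after 7 days in medium with 15% serum. The LIF-free plus lithium cultures had lithium and no LIF, the LIF-free cultures had neither, the LIF plus lithium cultures had LIF at 1000 units per ml and lithium, and the LIF cultures had LIF alone. The labels give the lithium as 50 nM, far below the millimolar doses in common use, so the dose that the lithium comparisons stand for is uncertain. They number the arrays of each group as biological replicates 1 to 3. The series' design text mentions independent experiments within each replicate, so an array may stand for pooled material. All values come from 1 cell line.

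Cytosines next to guanine are methylated on both DNA strands. DNMT3A and DNMT3B place new methyl groups, and DNMT3L, which has lost catalysis, binds and stimulates them. After replication UHRF1 recognises the half-methylated site and brings DNMT1, which copies the mark. TET1, TET2 and TET3 oxidise the methyl group, which is then diluted by replication or removed by base excision repair. In mouse embryonic stem cells Tet1 and Tet2 are known as the main oxidases, and LIF is the cytokine that holds serum-grown cells in self-renewal. Lithium is known as an inhibitor of the kinase GSK3, which restrains Wnt signalling.

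Because methylation acts at CG, the promoters of 4 members that differed most between cultures are shown first, as the RefSeq sequence of mouse build GRCm38.p6 from 250 bases before to 50 bases after an annotated start, 5′ to 3′ on the gene's strand, with each CG in capitals. The windows are Tet1 (chr10:62887275-62887574, minus strand), Tet2 (chr3:133544341-133544640, minus strand), Dnmt3b (chr2:153649199-153649498, plus strand) and the second of the 3 Dnmt3l starts (chr10:78049592-78049891, plus strand).
Tet1: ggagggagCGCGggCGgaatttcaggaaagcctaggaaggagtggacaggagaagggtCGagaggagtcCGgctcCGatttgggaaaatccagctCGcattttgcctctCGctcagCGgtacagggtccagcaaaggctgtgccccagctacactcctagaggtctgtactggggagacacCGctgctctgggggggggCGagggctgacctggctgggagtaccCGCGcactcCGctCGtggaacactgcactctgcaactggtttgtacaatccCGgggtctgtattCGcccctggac
Tet2: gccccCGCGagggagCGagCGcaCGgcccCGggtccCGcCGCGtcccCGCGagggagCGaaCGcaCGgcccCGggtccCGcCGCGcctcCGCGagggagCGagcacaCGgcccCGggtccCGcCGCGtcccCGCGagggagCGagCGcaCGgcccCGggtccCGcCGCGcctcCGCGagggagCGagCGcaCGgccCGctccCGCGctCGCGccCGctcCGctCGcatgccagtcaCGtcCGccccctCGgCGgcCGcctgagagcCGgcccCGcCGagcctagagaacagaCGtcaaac
Dnmt3b: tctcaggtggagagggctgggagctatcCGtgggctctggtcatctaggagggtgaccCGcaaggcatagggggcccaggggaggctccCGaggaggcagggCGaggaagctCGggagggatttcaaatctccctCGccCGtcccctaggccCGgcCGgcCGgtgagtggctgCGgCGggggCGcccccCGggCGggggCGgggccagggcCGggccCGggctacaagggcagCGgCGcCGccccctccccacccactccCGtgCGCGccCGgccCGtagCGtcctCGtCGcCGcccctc
Dnmt3l: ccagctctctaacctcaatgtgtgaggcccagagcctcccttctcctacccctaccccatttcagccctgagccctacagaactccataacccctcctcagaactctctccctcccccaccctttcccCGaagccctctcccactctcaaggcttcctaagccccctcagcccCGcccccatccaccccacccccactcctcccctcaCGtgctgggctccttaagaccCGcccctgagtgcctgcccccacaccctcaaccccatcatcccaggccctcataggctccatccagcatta
The Tet2 window held 57 CG and the Dnmt3b window 30, against 17 in Tet1 and 4 in this Dnmt3l window. Over all 32851 promoter windows of the table the median was 7 CG, with quartiles of 3 and 20, and 99.8% of windows held fewer than Tet2. The other 2 Dnmt3l starts held 6 and 3 CG, so all 3 Dnmt3l windows lay below that median while Tet1, Tet2, Tet3 (22 CG) and Dnmt3b lay above it.

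**Figure D1:**
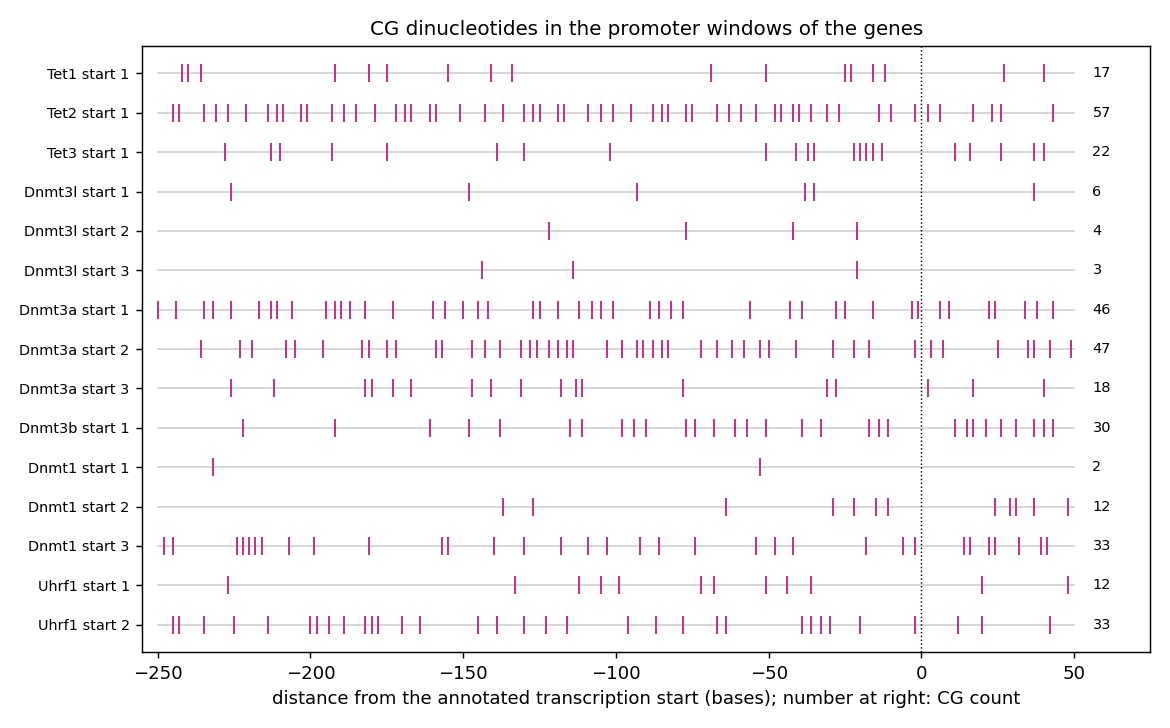
Position of each CG (vertical ticks) along the 15 promoter windows of the 8 genes, with the distance in bases from the annotated start on the horizontal axis, 1 row per start and the CG count at the right. The Tet2 row is filled along its length with 57 CG, and the 3 Dnmt3l rows carry 6, 4 and 3.

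Short motifs were searched on both strands in the 15 member windows as a description. The GC box GGGCGG, bound by Sp factors, was present in 12 of 15 windows, against 35.7% of all windows. It can overlap a CG, which its own letters contain. The palindrome TTCNNNGAA, the form bound by STAT factors, was present in 1 member window, the second Dnmt3l start printed above, against 8.3% of all windows. The E-box CACGTG was present in 2 windows (7.2% of all), the E2F forms TTTGGCG and TTTCGCG in 1 and 2 windows (1.6% and 0.8% of all), and both C-form matches lay in Dnmt1 and Uhrf1 starts. The TCF forms CTTTGAT and CTTTGAA were present in 0 and 1 windows, against 3.7% and 5.1% of all. The letters alone do not show that a factor binds.

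The deposited values were MAS5 signals on a linear scale, with array medians from 10.5 to 19.3 and correlations between arrays from 0.864 to 0.970 on the log2 scale over the probe sets tested. Probe sets entered the tests if their mean log2 signal exceeded the 40th percentile of all means, at a signal of 7.52, and 27022 of 45037 did so. Of the 20 member probe sets 18 passed. One dim Tet1 probe set and the single Tet3 probe set did not, so 7 of 8 genes were tested. Differences are log2 differences with their standard errors from limma, and adjusted p is limma's p after Benjamini-Hochberg adjustment over all 27022 probe sets, with a threshold of 0.05. Of 13 embryonic stem cell markers, all were above the filter, and Pou5f1 signal ran from 509 to 3334 over the arrays, so every group retained stem cell transcripts.

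Removal of LIF was read first in the cultures without lithium. Of the 7 tested genes 3 fell, Tet1, Tet2 and Dnmt3l, and 0 rose. Over all probe sets 3.91% were lower and 5.40% higher, 2515 in all, and 5260 with the replicate number as a block. With that block Dnmt3b (higher) and Uhrf1 (lower) passed the threshold too. In the lithium cultures, without the block, Tet1, Tet2 and Dnmt3l again fell and 0 rose, where 4.93% of all probe sets were lower and 7.53% higher. There 60.4% of calls were higher as deposited and 49.0% after centring each array on its median, which moved the median change of all probe sets to -0.01. Averaged over both pairs (6 LIF-free against 6 LIF arrays) 4 genes fell and 1 rose, where 10.8% of all probe sets were lower and 13.9% higher. The number rising was near that share. The median log2 change of the 7 genes was -0.47 without lithium, -0.44 with lithium and -0.45 on average, beside -0.07, 0.11 and 0.02 over all probe sets. Without replicate 2 of every group, which left 2 arrays in each, 0 members and 0 probe sets of any kind were called in either pair, while the differences kept their direction. The log2 changes were then -1.84 (Tet1), -2.14 (Tet2) and -1.18 (Dnmt3l) without lithium, and -1.54, -1.16 and -1.01 with lithium. The average still had 3 member calls, out of 1088 over all probe sets.

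Tet1 encodes the oxidase that is most associated with mouse stem cells. Its signal was 186, 221 and 248 in LIF-free plus lithium replicates 1 to 3, against 730.3, 568 and 530.0 in LIF plus lithium. It was 237, 196 and 138 in LIF-free, against 754, 429 and 554 in LIF. Every LIF-free array lay below every LIF array. The log2 change was -1.60 ± 0.23 without lithium (SE, n = 3 arrays per group, limma adjusted p = 0.00203) and -1.48 ± 0.23 with lithium (limma adjusted p = 0.0022). On average Tet1 was 2.91-fold lower (log2 change -1.54, 95% interval -1.90 to -1.18, limma adjusted p = 5.39e-05), and 5.91% of all probe sets separated downward across all 12 arrays in this way (13.7% within the pair without lithium and 13.5% within the pair with it). In a bulk culture, fewer cells with a transcript and less of it per cell cannot be told apart.

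Tet2, the second oxidase of these cells, had the largest log2 change of the 7 without lithium. Its signal was 73.5, 67.3 and 76.8 in LIF-free plus lithium, against 179, 165 and 158 in LIF plus lithium. It was 67.6, 45.3 and 38.2 in LIF-free, against 219, 168 and 228 in LIF. Again no LIF-free array reached the lowest LIF array. The log2 change was -2.05 ± 0.21 without lithium (limma adjusted p = 0.000776) and -1.21 ± 0.21 with lithium (limma adjusted p = 0.00359). The average change was a 3.10-fold lower signal (log2 change -1.63, 95% interval -1.95 to -1.31, limma adjusted p = 2.4e-05).

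Tet3, the oxidase best known from the egg and from neurons, was near background. Its signal was 9.64, 9.63 and 1.97 in LIF-free plus lithium, 2.82, 2.64 and 7.43 in LIF-free, 8.11, 0.757 and 2.68 in LIF plus lithium, and 8.0, 6.97 and 14.1 in LIF. The groups overlapped, no test was made, and no fold is given.

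**Figure D2:**
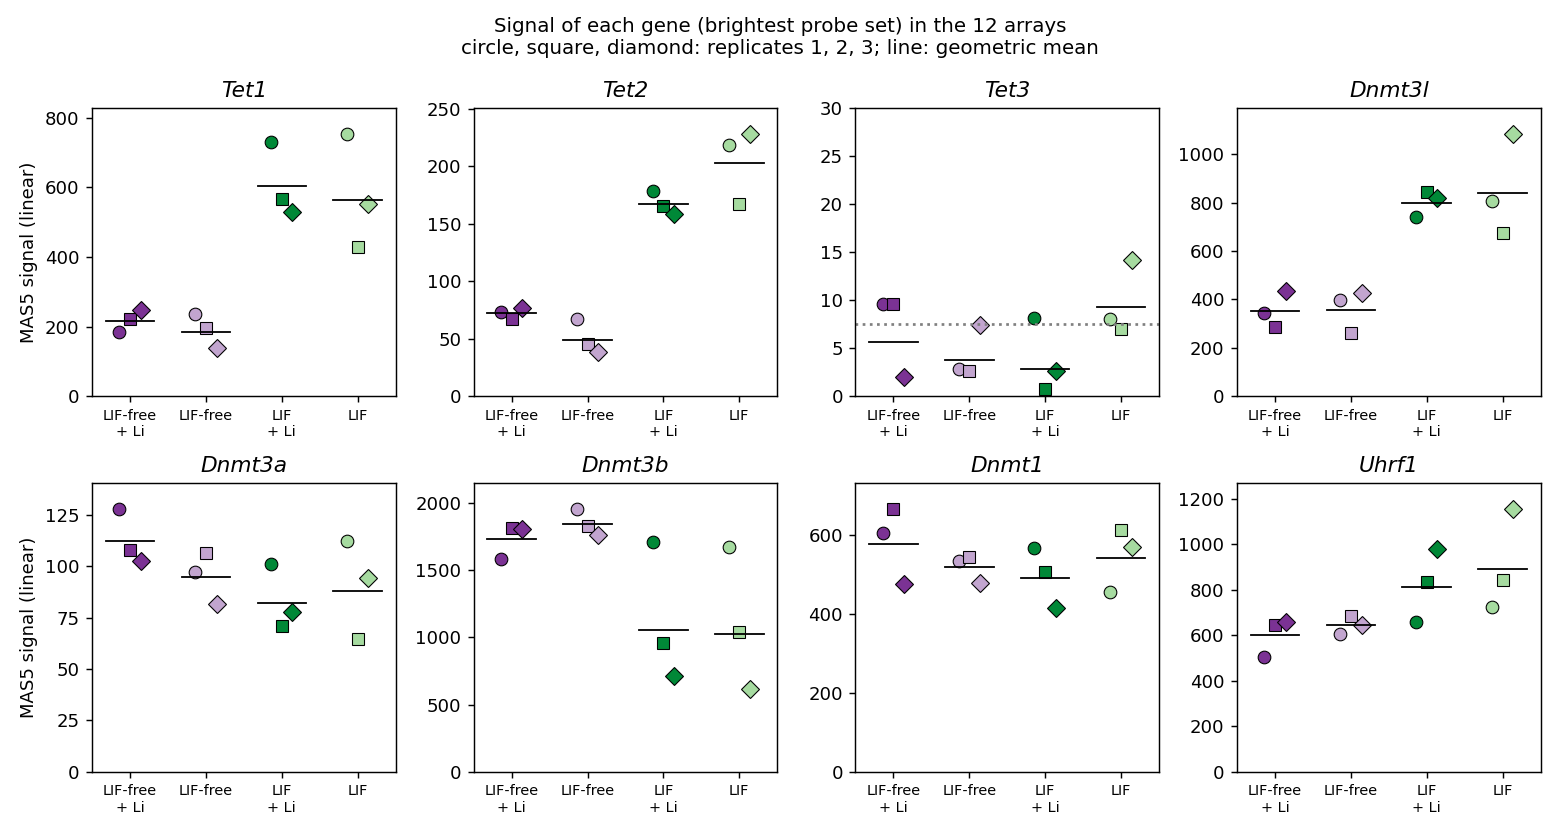
Signal (vertical axes, linear MAS5 units, each panel with its own scale) of the brightest probe set of each of the 8 genes in the 12 arrays, by culture group, with circles, squares and diamonds for replicates 1, 2 and 3 and a line at the geometric mean of the group. In the Tet3 panel the dotted line is the filter at 7.52. Tet1, Tet2 and Dnmt3l are lower in every LIF-free array than in every LIF array, and in Dnmt3b the replicate 1 arrays with LIF, 1707 and 1672, sit near the LIF-free arrays.

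Dnmt3l encodes the inactive partner that stimulates the de novo enzymes, and it fell with the Tet genes. Its signal was 345, 288 and 435 in LIF-free plus lithium, against 741, 846 and 818 in LIF plus lithium. It was 400.0, 262 and 426 in LIF-free, against 808, 674 and 1084 in LIF. The LIF-free and LIF arrays did not overlap. The log2 change was -1.24 ± 0.22 without lithium (limma adjusted p = 0.00448) and -1.19 ± 0.22 with lithium (limma adjusted p = 0.00432). On average the signal was 2.32-fold lower (95% interval of the log2 change -1.55 to -0.88, limma adjusted p = 0.00014).

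Dnmt3b, a de novo methyltransferase of the early embryo, moved the other way from its partner, and its LIF arrays differed widely by replicate number. Its signal was 1586, 1813 and 1809 in LIF-free plus lithium, against 1707, 957 and 710.4 in LIF plus lithium. It was 1952, 1826 and 1763 in LIF-free, against 1672, 1036 and 619 in LIF. All LIF-free arrays were high, and among LIF arrays only the replicate 1 arrays came near them. In the cultures without lithium the groups did not overlap, as in 13.8% of all probe sets in the upward direction. The log2 difference there was 0.85 ± 0.32 (limma adjusted p = 0.121), and with the replicate number as a block it passed (limma adjusted p = 0.0248). With lithium it was 0.72 ± 0.32 (limma adjusted p = 0.172). On average Dnmt3b rose 1.72-fold (log2 change 0.79 ± 0.23, 95% interval 0.29 to 1.28, limma adjusted p = 0.0236), with 1 LIF-free array below the highest LIF array.

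Taken by replicate number, the Dnmt3b log2 difference between LIF-free and LIF was 0.22, 0.82 and 1.51 for numbers 1, 2 and 3. Between LIF-free plus lithium and LIF plus lithium it was -0.11, 0.92 and 1.35. Both pairs thus had their smallest difference at number 1. Leaving out replicate 1 of every group gave an average log2 change of 1.15 (limma adjusted p = 0.000551), and leaving out replicate 3 gave 0.46 (limma adjusted p = 0.165). Leaving out replicate 2 gave 0.74 (limma adjusted p = 0.280). Single arrays ended the average call too: the adjusted p was 0.0567 without LIF plus lithium replicate 2, 0.0611 without replicate 3 of that group and 0.053 without LIF-free plus lithium replicate 2.

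Dnmt3a, the other de novo enzyme, did not pass in any comparison by its brightest probe set. Its signal was 128, 108 and 102 in LIF-free plus lithium, against 101, 70.8 and 77.9 in LIF plus lithium. It was 97.2, 106 and 81.9 in LIF-free, against 112, 64.7 and 94.3 in LIF. The groups with lithium did not overlap, as in 19.9% of all probe sets in the upward direction, and the groups without lithium did. The log2 difference was 0.45 with lithium (95% interval -0.04 to 0.93, limma adjusted p = 0.226) and 0.10 without (95% interval -0.38 to 0.59, limma adjusted p = 0.831). A change of up to those bounds could be present.

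**Figure D3:**
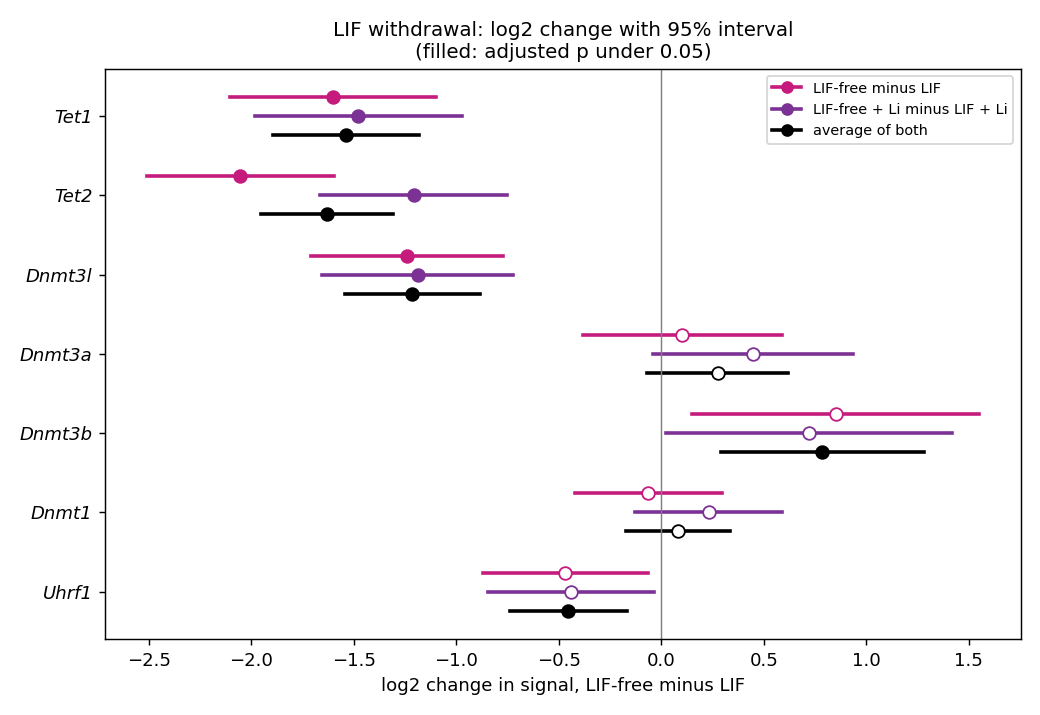
Log2 difference in signal (horizontal axis, LIF-free minus LIF) of the 7 tested genes with 95% intervals from limma, for the pair with lithium, the pair without lithium and their average, filled where the adjusted p was under 0.05. Tet1, Tet2 and Dnmt3l are filled below 0 in all 3, and Dnmt3b (0.79) and Uhrf1 (-0.45) are filled only in the average.

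Maintenance was represented by Dnmt1, the copying enzyme, and Uhrf1, its guide. Dnmt1 signal was 605, 664 and 475 in LIF-free plus lithium, against 565, 506 and 413 in LIF plus lithium. It was 533, 544 and 478 in LIF-free, against 456, 611 and 568 in LIF. The arrays of all groups were intermingled. The average log2 difference was 0.08 (95% interval -0.17 to 0.34, limma adjusted p = 0.674). A rise of more than 0.34 or a drop of more than 0.17 on the log2 scale thus lay outside the interval of this probe set. The next brightest Dnmt1 probe set was at -0.20 with a 95% half-width of 0.24, so its interval reached lower.

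Uhrf1 signal was 506, 645 and 660.0 in LIF-free plus lithium, against 658, 834 and 979 in LIF plus lithium. It was 604, 684 and 644 in LIF-free, against 724, 843 and 1153 in LIF. Without lithium all LIF-free arrays lay below all LIF arrays, as did 13.7% of all probe sets. The log2 difference was -0.47 ± 0.19 without lithium (limma adjusted p = 0.141), passing with the replicate number as a block (limma adjusted p = 0.0195), and -0.44 ± 0.19 with lithium (limma adjusted p = 0.150). On average Uhrf1 fell 1.37-fold (log2 change -0.45 ± 0.13, limma adjusted p = 0.0239). That call ended without replicate 2 of every group (limma adjusted p = 0.196), without replicate 3 of every group (limma adjusted p = 0.112), and in 4 fits that left out 1 array: LIF plus lithium replicate 2 (0.0534) or 3 (0.0639), LIF-free replicate 1 (0.0544) and LIF-free plus lithium replicate 1 (0.0638).

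Uhrf1 and Dnmt3b mirrored each other across the arrays. Their log2 signals correlated at r = -0.90 over 12 arrays and at r = -0.83 once each group's mean was removed, and those arrays share replicate numbers. Tet1 and Tet2 went together, with r = 0.96 over the arrays and 0.77 within groups. Tet1 and Dnmt3l correlated at 0.87 over the arrays and 0.03 within groups, so their likeness lay between the groups.

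The other probe sets of each gene were read as a check. Both further tested Tet1 probe sets fell on average (log2 change -1.77 and -1.47, limma adjusted p = 1.86e-05 and 9.28e-05), and the second Tet2 probe set fell by 1.61 (limma adjusted p = 0.0113). The second Tet2 probe set did not pass in either pair alone (limma adjusted p = 0.0687 without lithium and 0.127 with it). Of the 4 other Dnmt3a probe sets, 1 fell (log2 change -0.69, limma adjusted p = 0.0201), opposite in sign to the brightest, and the remaining 3 ran from -0.40 to 0.28 and did not pass. The second Dnmt3b probe set changed by 0.29 (limma adjusted p = 0.327), so the Dnmt3b rise rested on 1 probe set. The second Uhrf1 probe set had a log2 difference of -0.74 (limma adjusted p = 0.0582). The other Dnmt1 probe sets were at -0.20 and 0.16 and did not pass. The brightest Dnmt1 probe set is of the kind that can bind related transcripts.

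**Figure D4:**
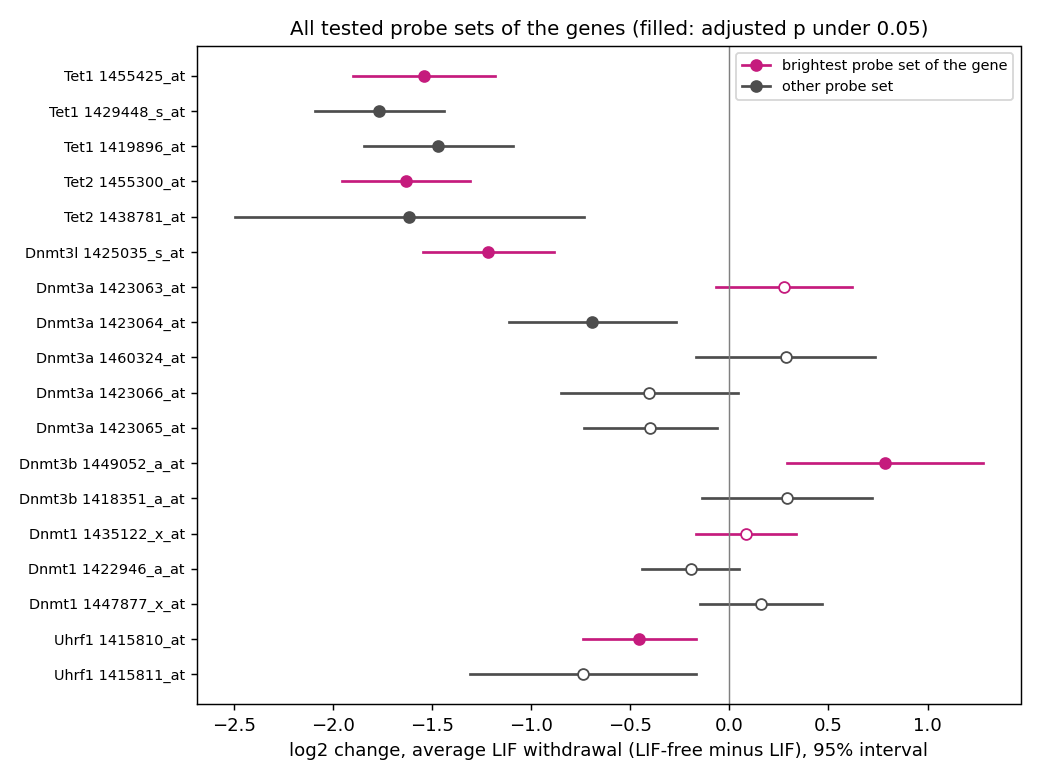
Average log2 difference in signal (horizontal axis, LIF-free minus LIF, 6 arrays against 6) with 95% intervals for each of the 18 tested probe sets of the 7 genes, filled where limma's adjusted p was under 0.05. The Tet1 and Tet2 probe sets lie together below 0, while those of Dnmt3a lie on both sides of 0, from -0.69 to 0.28.

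Lithium was then compared with no lithium inside each LIF state. limma called 0 members and 0 probe sets (0%) in lithium with LIF, lithium without LIF, their average and the interaction, which is the LIF difference with lithium minus the LIF difference without it. This main fit left the replicate number out. With the replicate number as a block, and under every other alternative, no member passed in these comparisons. At an unadjusted p under 0.05 there were 749, 347, 340 and 666 probe sets, in that order. For Tet1, Dnmt3l, Dnmt3a, Dnmt3b, Dnmt1 and Uhrf1 the lithium differences ran from -0.14 to 0.25 on the log2 scale, and each 95% interval held 0. The Dnmt3b interval was the widest, from -0.79 to 0.61 without LIF, so a change within those bounds could be present.

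Tet2 was the member with the largest lithium difference. LIF-free plus lithium cultures averaged 72.5 ± 4.82 and LIF-free cultures 50.4 ± 15.4 (SD, n = 3 arrays each), a log2 difference of 0.57 (95% interval 0.11 to 1.02, limma adjusted p = 1.00). LIF-free replicate 1, at 67.6, overlapped the lithium arrays. With LIF the difference was -0.28 (LIF plus lithium 167 ± 10.4 and LIF 205 ± 32.7, SD, n = 3 arrays each). The interaction was 0.85 (95% interval 0.20 to 1.49, limma unadjusted p = 0.014, adjusted p = 0.999), so it did not pass over the whole table. By the second Tet2 probe set the LIF difference was -1.43 with lithium and -1.80 without.

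**Figure D5:**
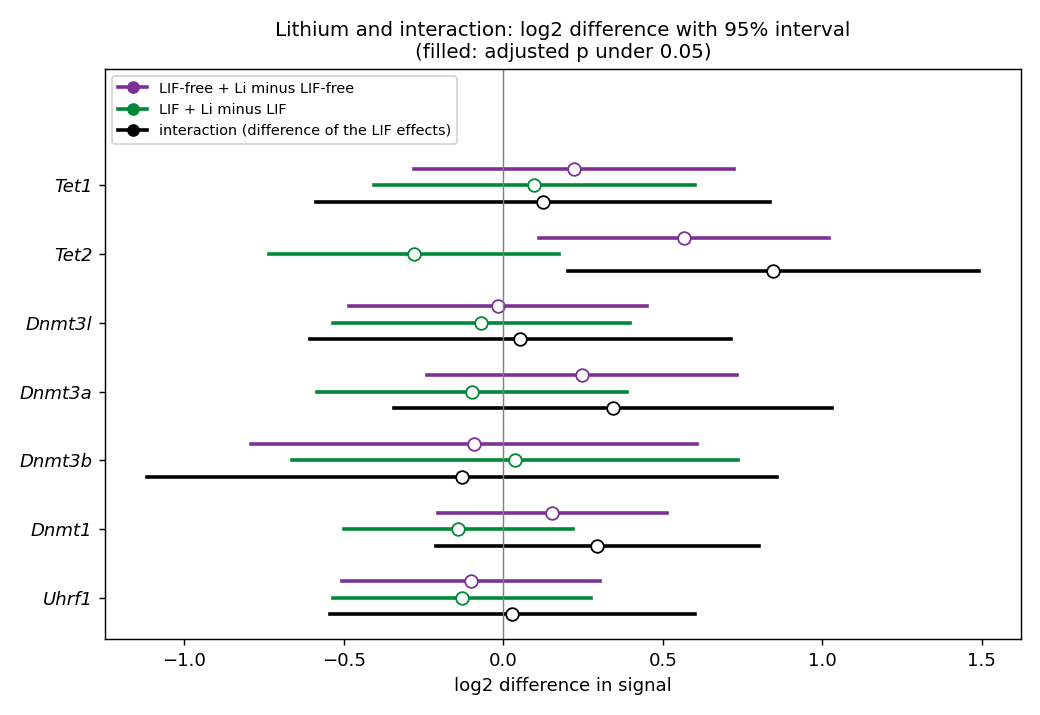
Log2 difference in signal (horizontal axis) with 95% intervals from limma for lithium without LIF, lithium with LIF and the interaction, for the 7 tested genes, filled where the adjusted p was under 0.05. No mark is filled, and the Tet2 interaction of 0.85 has an interval of 0.20 to 1.49.

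Transcripts of genes whose proteins work around these enzymes were followed in the average LIF withdrawal, from lists of known partners. The counts are set against the 10.8% of all probe sets that were lower and the 13.9% that were higher in this comparison. These lists and the marker lists below were chosen with earlier results of these data known. They read 1 bright probe set per gene, while the shares cover all tested probe sets, so an excess over the shares was not tested. Of 18 tested cofactors and regulators 7 fell and 2 rose (median log2 change -0.16), the number rising being near that share. Hells, a chromatin remodeller needed for normal methylation, averaged 1107 ± 102 in LIF-free and 1660 ± 108 in LIF arrays (SD, n = 6 each, log2 change -0.59, limma adjusted p = 0.000311). Zfp57, which guards methylation at imprints, fell too (log2 change -1.41, limma adjusted p = 0.0013), as did Prdm14, a repressor of the de novo enzymes (-1.19, limma adjusted p = 0.00349), and Nanog, a TET1 partner (-1.0, limma adjusted p = 0.00436). Nanog is counted again among the embryonic stem cell markers below. The 2 that rose, named after their values were seen, were Lin28a (0.60) and the Uhrf1 relative Uhrf2 (0.50). Of the 18, 1 fell and 0 rose without replicate 2 of every group.

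Of 7 readers of methylated DNA 3 rose and 1 fell (median 0.24), beside 13.9% higher and 10.8% lower over all probe sets. Mbd2, a methyl-CG binding protein, averaged 158 ± 17.5 in LIF-free and 102 ± 15.6 in LIF arrays (SD, n = 6 each, log2 change 0.64, limma adjusted p = 0.00268). Zbtb33, the reader also called Kaiso, rose by 0.72 and its relative Zbtb4 by 0.81 (limma adjusted p = 0.0048 and 0.0187). Mbd4, a reader that is also a glycosylase, fell by 0.36 (limma adjusted p = 0.0452). Without replicate 2 of every group 0 of the 7 passed, and Mbd4 was lost in 10 of 12 fits that left out 1 array.

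A list of base excision and deamination genes, of which base excision can follow TET oxidation, held 17 genes. The 14 with a probe set were tested, and the glycosylase gene Tdg was not among them. Of these 14, 6 fell and 1 rose (median -0.40), where 10.8% of all probe sets were lower and 13.9% higher. Apobec1, an RNA and DNA deaminase, fell (log2 change -1.49, limma adjusted p = 0.000145), as did Apobec3, a restriction factor of the same family (-1.25, limma adjusted p = 0.001). Xrcc1, a repair scaffold, fell by 0.63 (limma adjusted p = 0.0163), while the stress gene Gadd45g rose by 1.06 (limma adjusted p = 0.00195). In the fits that left out 1 array, between 3 and 6 fell, with 3 in 6 of those fits (LIF replicate 3, LIF plus lithium 2 and 3, LIF-free 2, LIF-free plus lithium 1 and 2). Only 1 fell without replicate 2 of every group.

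Methyl groups come from one-carbon metabolism and the TET reaction uses 2-oxoglutarate. Of 13 such supply genes 5 fell and 0 rose (median -0.38), against 10.8% lower and 13.9% higher over all probe sets. Mthfd2, of the mitochondrial folate cycle, averaged 134 ± 15.9 in LIF-free and 334 ± 39.3 in LIF arrays (SD, n = 6 each, log2 change -1.32, limma adjusted p = 1.92e-05). The serine hydroxymethyltransferases Shmt1 and Shmt2 fell (log2 change -0.58 and -1.49, limma adjusted p = 0.000972 and 0.0012), as did Idh1, which makes 2-oxoglutarate (-0.49, limma adjusted p = 0.00198). Only 2 fell without replicate 2 of every group.

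Of 17 tested germline genes whose promoters are known to be silenced by methylation, 10 fell and 2 rose (median -1.39), beside 10.8% lower and 13.9% higher over all probe sets. Mael, a factor of piRNA defence, averaged 26.3 ± 8.38 in LIF-free and 137 ± 51.7 in LIF arrays (SD, n = 6 each, log2 change -2.35, limma adjusted p = 0.000221). Dazl, an RNA-binding protein of germ cells, the germline ADP/ATP carrier Slc25a31 and Hormad1, a meiotic axis protein, had LIF-free geometric means under the filter (7.26, 4.52 and 6.85) and passed it through their LIF arrays. With values under 7.52 set to it, they were at least 5.69-fold, 4.53-fold and 4.15-fold lower (limma adjusted p = 0.000172, 0.000472 and 0.000618 as deposited). Rhox6 and Rhox9, homeobox genes also known from placenta and named after their values were seen, rose by 1.48 and 1.00 (limma adjusted p = 0.002 and 0.00735). In all, 5 of the 17 had a LIF-free mean under the filter, 4 of them called, and the median was -1.31 with those at their bounds. Methylation itself was not measured. Leaving out replicate 2 of every group, 6 fell and 0 rose.

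Dnmt1 and Uhrf1 act at the replication fork, and 8 of 20 replication partners fell with 0 rising (median -0.25), where all probe sets had 10.8% lower and 13.9% higher. Ccne1, the G1 cyclin E1, fell (log2 change -0.92, limma adjusted p = 5.39e-05), as did the helicase subunit Mcm3 (-0.65, limma adjusted p = 0.00136), the polymerase Pola1 (-0.80, limma adjusted p = 0.00172) and Gins1, of the same helicase complex (-0.49, limma adjusted p = 0.00337). Without replicate 2 of every group 2 fell.

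Cell type markers moved with LIF beside all of these groups, and their part in the results was not tested. Their counts are read beside the 10.8% of all probe sets that were lower and the 13.9% that were higher. Of 13 embryonic stem cell markers 12 fell and 0 rose on average (median log2 change -1.25), with the smallest p in Klf4 (-2.25), Tfcp2l1 (-1.57), Tdgf1 (-1.89) and Zfp42 (-1.25), with limma adjusted p from 1.36e-05 to 2.91e-05. Their summed signal was 10672 to 15628 in LIF-free plus lithium and 12943 to 16004 in LIF-free arrays, against 25050 to 26297 in LIF plus lithium and 21348 to 33086 in LIF arrays. Within it Dppa5a, which did not pass, averaged 6537 in LIF-free and 7702 in LIF arrays. All 10 tested trophoblast markers rose (median 1.50), with the smallest p in Krt18 (1.53), Krt7 (1.40), Krt8 (1.65) and Gata3 (2.12), with limma adjusted p from 2.1e-05 to 0.000118. Their sum was 12149 to 14503 in LIF-free plus lithium and 12136 to 14393 in LIF-free arrays, against 3482 to 5531 in LIF plus lithium and 3759 to 6132 in LIF arrays. Krt8 and Krt18 made up most of that sum, with LIF-free means of 5313 and 5973. Elf5 failed the filter on its mean, with a highest signal of 7.62.

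Of 10 tested fibroblast markers 5 rose and 1 fell, beside 13.9% higher and 10.8% lower over all probe sets, the number falling being near that share. Their sums were 1012 to 1578 in LIF-free plus lithium and 1001 to 1459 in LIF-free arrays, against 434 to 962 in LIF plus lithium and 669 to 1036 in LIF arrays. Tagln and Acta2 made up most of these sums, with LIF-free means of 490 and 397, and Dcn, Lum and Fap were below the filter. Of those that rose, Col1a1 and Postn had LIF geometric means under the filter (4.0 and 3.51) and passed it through the LIF-free arrays, and the lower call was lost in 8 of 12 fits that left out 1 array. Of 8 tested endoderm markers 3 rose and 2 fell, with Afp and Apoa1 below the filter and sums of 583 to 609 and 594 to 785 in the LIF-free groups with and without lithium, against 482 to 901 and 544 to 873 in the LIF groups with and without it. Ttr, 1 of those that rose, likewise had a LIF geometric mean under the filter (4.34). Of 7 tested neural markers 1 fell (Stmn2, -0.90, limma adjusted p = 0.000204), near the 10.8% of all probe sets that were lower. Neural sums were 336 to 403 in the 6 LIF-free arrays, against 455 to 615 in the 6 LIF arrays. Stmn2, averaging 198 in LIF-free and 370 in LIF arrays, made up much of these sums. The other 6 tested neural markers did not pass, and the median log2 change of the list was 0.12. The Gapdh 3′ to 5′ ratio, a measure of RNA quality, was 0.739 to 0.802 in LIF-free arrays, against 0.798 to 0.860 in LIF arrays, and its part in the results was not tested either. Without replicate 2 of every group, where calls over all probe sets dropped as well, 8 stem cell markers fell, and 6 trophoblast and 1 fibroblast markers rose.

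The genes most like each member were found by Pearson's r of log2 signals over the 12 arrays, among 12202 genes, as a description, since the arrays share their groups and replicate numbers. Spry4, an inhibitor of receptor tyrosine kinase signals, ranked first for both Tet1 and Tet2 (r = 0.97 each). It was followed by Brca1 (0.97) and Ranbp17 (0.96) for Tet1, and by Slc47a1 (0.95) and Pfkp (0.95) for Tet2. Dnmt3l was most like Ubr7 (0.97), Khdc3 (0.97) and Dpy30 (0.96). Dnmt3b was most like Fgf13 (0.98), Zfp946 (0.98) and the activin inhibitor Fst (0.97), and Uhrf1 was most like Smtnl2, Rita1 and Stat6 (0.97 each). Dnmt3a was most like Ces4a (0.94), Ccl27a (0.92) and Zdhhc17 (0.92). The nearest to Dnmt1 were Golga5 (0.88), Rnf144a (0.88) and Hspg2 (0.87), and 0 genes passed 0.9 with it, against 85 with Tet1 and 198 with Uhrf1.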

How the data were processed

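The deposited table gives 1 linear signal intensity per probe set and array, which the authors computed with MAS5, per the submitters' processing notes. The MAS5 version and settings are not given in the sources used here. Trimmed of 2% of values at either end, every array had a mean of 100.001, so the arrays had been scaled to 1 target. After removal of 64 Affymetrix controls from 45101 probe sets, 45037 were left. Intensities under 1 were set to 1 (0.146% of tested values) and log2 was taken. Symbols came from the platform annotation: of these, 34945 had a single symbol, 932 had several and were not named, 9160 are unnamed here, and 34741 matched a mouse gene table by gene ID with 0 changed.

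In limma 3.58.1 (R 4.3.3), lmFit estimated a mean for each group from the 12 arrays together, eBayes moderated the variances along an intensity trend (8 residual degrees of freedom), and 7 comparisons were drawn: LIF withdrawal without lithium, with lithium and on average, lithium with LIF, without LIF and on average, and the interaction. Tests were two-sided. Relabelling 3 arrays against 3 has a smallest two-sided p of 0.1, so the pooled spread carries each call in a single pair. The number of arrays limits precision: the median half-width of a 95% interval was 0.63 on the log2 scale for a pair and 0.44 for an average. The labels call the replicates biological and say no more of their source, so p measures the spread between these arrays. Whether that spread stands for separately grown cultures is not stated.

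All 8 members were named whatever their values. From each other list up to 4 members past the threshold with the smallest p in the average LIF withdrawal were named, read from the brightest tested probe set (a cross-hybridising one only where a gene had no other), and for each member the 3 genes of highest r. The members and lists were chosen with earlier results of these data known. Marker lists covered embryonic stem cells, fibroblasts and feeder cells, trophoblast, endoderm and neural cells.

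Replicate numbers come from the labels. They were taken to pair arrays where the residuals of all 3 same-numbered pairs correlated above 0.1, which held between LIF-free and LIF (0.438, 0.137 and 0.339), and not between LIF-free plus lithium and LIF plus lithium (0.451, 0.0972 and 0.379). Both lithium comparisons passed that check. Alternatives changed the scaling (quantile normalisation, or median centring over tested probe sets), the offset (a pseudocount of 16), the filter (none, or the 60th percentile), the model (a replicate block, array weights, no intensity trend, only the compared arrays), the probe set (the mean over a gene's sets) and the arrays (each left out in turn). Leaving out 1 replicate number of every group, and setting list values under the filter to it, were added after seeing the data. Promoters came from RefSeq and protein sequences were not used here. Figures used matplotlib 3.10.9 under Python 3.11.15.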

Additional observations from a re-analysis of the deposited data

How the results depend on the processing

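Of 49 member results, 36 stayed on the same side of the threshold under every alternative, 0 called values reversed, and 24 uncalled values changed sign under some alternative. The 36 include all lithium and interaction results, of which none passed in the main fit or in any alternative. Every result that changed side was a LIF withdrawal result. The average falls of Tet1, Tet2 and Dnmt3l passed under all alternatives, and their falls in the single pairs under all but 1: without replicate 2 of every group the limma adjusted p was 0.214 for each of them without lithium, and 0.133 (Tet1 and Dnmt3l) and 0.168 (Tet2) with lithium, where 2 arrays per group were left and the log2 changes were -1.84, -2.14 and -1.18 (Tet1, Tet2 and Dnmt3l) without lithium and -1.54, -1.16 and -1.01 with it. The average Dnmt3b and Uhrf1 calls also ended without the intensity trend (limma adjusted p = 0.0557 and 0.0577), and that of Dnmt3b with the mean over its probe sets (0.0602). With array weights the average Dnmt3a difference passed (0.52, limma adjusted p = 0.00696), and Dnmt3b and Uhrf1 passed in both pairs. Under 1 other alternative the average Dnmt3a difference turned to -0.19 and did not pass. Leaving out LIF replicate 1 brought Dnmt3b (1.20, limma adjusted p = 0.0172) and Uhrf1 (-0.62, limma adjusted p = 0.049) past the threshold without lithium, and leaving out LIF plus lithium replicate 1 brought Dnmt3b past it with lithium (1.07, limma adjusted p = 0.0348). The cause of these shifts was not tested.

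Called probe sets for withdrawal without lithium, with lithium and on average numbered 2515, 3368 and 6678. With the replicate number as a block they numbered 5260, 5938 and 9076. In the lithium pair, whose replicate numbers did not pass the pairing check, the block brought Dnmt3b (limma adjusted p = 0.0473) and Uhrf1 (0.0234) past the threshold, and beyond these and the values given without lithium it changed no other member call. Array weights gave 7870, 6887 and 10859. Without lithium the count was 1674 with no intensity trend and 1168 with only the compared arrays. Leaving out 1 array gave 1039 to 3950, 1360 to 4311 and 5264 to 7483, and lithium with LIF had 2 calls without LIF plus lithium replicate 1. Without replicate 1, 2 or 3 of every group the counts were 2923, 0 and 741 without lithium, 2465, 0 and 1912 with lithium, and 5801, 1088 and 4868 on average. Centring each array on its median changed the share of higher calls with lithium from 60.4% to 49.0%, and the median log2 change there from 0.11 to -0.01. Depth has no counterpart on these arrays, and signals near the filter of 7.52, such as Tet3, bound what could be read.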
